A study of Mus musculus with 8 samples.

Results

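Rab GTPases are the members described here: the 57 mouse genes whose name in the array files is Rab followed by a number, with at most 1 letter and 1 digit after it. They were measured by 82 of the 55681 non-control probes on each array, and each gene is given by its brightest. In 55 of the 57, at least 4 of the 8 arrays read that probe well above background. These 55 were tested among 40221 features. Rab36 and Rab39b were not well above background on any array and were not tested. Rab1a, Rab6a and Rab29 carry the older names Rab1, Rab6 and Rab7l1 in the files.

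The samples were cells enriched with magnetic beads that carry an antibody to CD31 (PECAM-1), a surface protein of endothelium that several blood cells carry too. Each of the 8 arrays held RNA from the body of 1 embryo at E12.5, taken without fetal liver and brain, so the 4 arrays of a group are separate embryos. The 4 mutants were homozygous for the Gata2 +9.5 mutation, which lies in an enhancer of the blood and endothelial transcription factor gene Gata2, and the 4 wild type embryos were their littermates. Both genotypes came from matings of heterozygotes on the C57Bl/6J background, and each of the 2 litters gave 2 mutants (1 and 2 in litter 1, 3 and 4 in litter 2) and 2 wild types (numbered likewise). Each litter was on a slide of its own, so litter and slide cannot be told apart. The labels do not give the purity of the enrichment.

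Rab proteins are small GTPases that switch between a GTP-bound form on a membrane and a GDP-bound form held in the cytosol. Each marks a particular compartment and recruits effectors that move, tether or fuse vesicles there. Exchange factors load the GTP, GTPase-activating proteins end the signal, and a lipid tail added by the Rab prenylation enzymes anchors the protein. Most cells carry the Rabs of the secretory pathway and endosomes, whereas a smaller set serves the storage granules of platelets, mast cells, granulocytes and cytotoxic cells or the melanosomes of pigment cells.

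The array read each gene through probes of 60 bases. The first 30 bases are given for the genes on which the comparison of granule-related with ubiquitous members turns, and for both probes of Rab37 and Rab3d, since a second probe bears on how far a value can be trusted. Positions are those of the array's mm9 annotation, and the part of the transcript that a probe reads was not determined here.
Rab44 (chr17:29285831-29285890): tttttgaatatttttggggttttgtcggtg
Rab27a (chr9:72944668-72944727): agggactctttgaaacaccaaactcatcat
Rab37, brighter probe (chr11:115023483-115023542): atacatagctctgggcctctggcatttctg
Rab37, second probe (chr11:115023488-115023547): tagctctgggcctctggcatttctgttttt
Rab3d, brighter probe (chr9:21713734-21713793): ctattcactgaccagactcccctaaacact
Rab3d, second probe (chr9:21719348-21719407): cgctaccggacaatcaccacggcctactat
Rab3a (chr8:73282447-73282506): cactcctccctagaagttatgaacactaca
The Rab37 probes overlap almost wholly and are no independent readings, whereas those of Rab3d lie apart. No sequence is given for Rab27b. Although the family is conserved, no probes of 2 different members shared a run of more than 11 bases (Rab33a and Rab8b), and those of Rab27a and Rab27b shared at most 6.

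GATA factors bind the letters AGATAA, with T also allowed as the first letter and G as the last, so the RefSeq promoters (GRCm38.p6, 250 bases before to 50 after a start) were searched for this motif on both strands. RefSeq promoters were matched to 47 of the 57 members. Of these 47 members 14 (29.8%) held a match, as did 8930 of 27025 genes overall (33.0%). Rab44, Rab27b, Rab37 and Rab38 had no entry. Among the 3 granule-related members with one, Rab32 held a match 200 bases before its start, and Rab27a and Rab3d held none. The 250 bases before the start are printed for Rab32 and for the more upstream of the Rab27a starts, as a member with and a member without the letters, with the match in capitals on the opposite strand.
Rab32 (chr10:10558208-10558457, minus strand): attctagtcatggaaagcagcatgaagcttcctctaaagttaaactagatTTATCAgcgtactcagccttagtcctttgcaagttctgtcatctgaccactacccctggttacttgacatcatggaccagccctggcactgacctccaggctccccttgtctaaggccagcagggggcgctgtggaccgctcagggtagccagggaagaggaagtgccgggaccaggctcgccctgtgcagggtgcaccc
Rab27a (chr9:73044560-73044809, plus strand): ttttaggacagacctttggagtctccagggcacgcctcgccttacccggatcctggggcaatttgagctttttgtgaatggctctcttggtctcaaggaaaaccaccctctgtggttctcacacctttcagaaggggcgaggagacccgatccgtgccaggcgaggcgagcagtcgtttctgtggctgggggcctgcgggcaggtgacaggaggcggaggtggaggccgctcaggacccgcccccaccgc
A match is a run of letters and no measured binding site.

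Values below are log2 of the scanner's processed signal minus the 75th percentile of the same array, so 0 is the signal of a probe at that percentile and a difference of 1 is a doubling. They compare 1 probe between arrays and do not rank different genes. The signal at the 75th percentile ranged from 996 to 2481, and the share of spots well above background from 74.95% to 92.05%. On the first principal component, which held 58.4% of the variance, wild type 2, wild type 3 and mutant 4 had the highest scores (104.6, 169.2 and 133.1). Wild type 4 lay in between at 26.5, and the other arrays ran from -138.2 to -60.9. The 3 highest are called the arrays that stood apart, although no clear gap sets wild type 4 with the rest. Several results that rest on them are given with and without them. Gata2 itself, the gene whose enhancer is mutated, had a level of 1.49 ± 0.465 (SD, n = 4) in wild type and -0.93 ± 0.528 in mutants, a difference of -2.42 ± 0.388 (SE) with an adjusted p of 0.0857 by limma over all features. The wild type arrays lay between 0.892 and 1.997 and the mutants between -1.273 and -0.15, so the groups did not overlap. Endothelial markers, which check the CD31 label, were well above background on all arrays for 10 of 10 genes, with a mean level of 3.95 to 5.63 in wild type and 4.22 to 5.46 in mutants.

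Rab44 and Rab27b, both tied to the granules of blood cells, had the lowest differences between mutant and wild type arrays among the 55 tested members, whereas Rab32, Rab38 and Rab3d of the same granule-related list lay near 0 or above. Rab17 and Rab20, of other lists, came next after these 2 with -1.04 and -0.82. Of the 55 members, 1 was lower in mutants at an adjusted p under 0.05 and 0 were higher, against 0.0448% and 0% of all features. That member was Rab44. At an unadjusted p under 0.05, 3 members were lower (2.67% of all features) and 1 was higher (0.38%), and these 4 were also the members whose groups did not overlap, a state found in 0.532% of all features for lower and 0.505% for higher values. All 3 of the lower ones (Rab44, Rab27b and Rab27a) are among the 7 granule-related members, while the higher one, Rab3a, belongs to the neuronal list. The granule-related members had a median change of -0.73 (-0.38 when all 8 arrays had to be well above background, which leaves out Rab27a), the 2 epithelial ones -0.67, the 21 ubiquitous ones 0.33, all 55 members 0.32 and all features 0.05. Since the set and its lists were chosen with earlier results of these arrays known, these counts and medians describe the members and are no test of the lists.

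**Figure D1:**
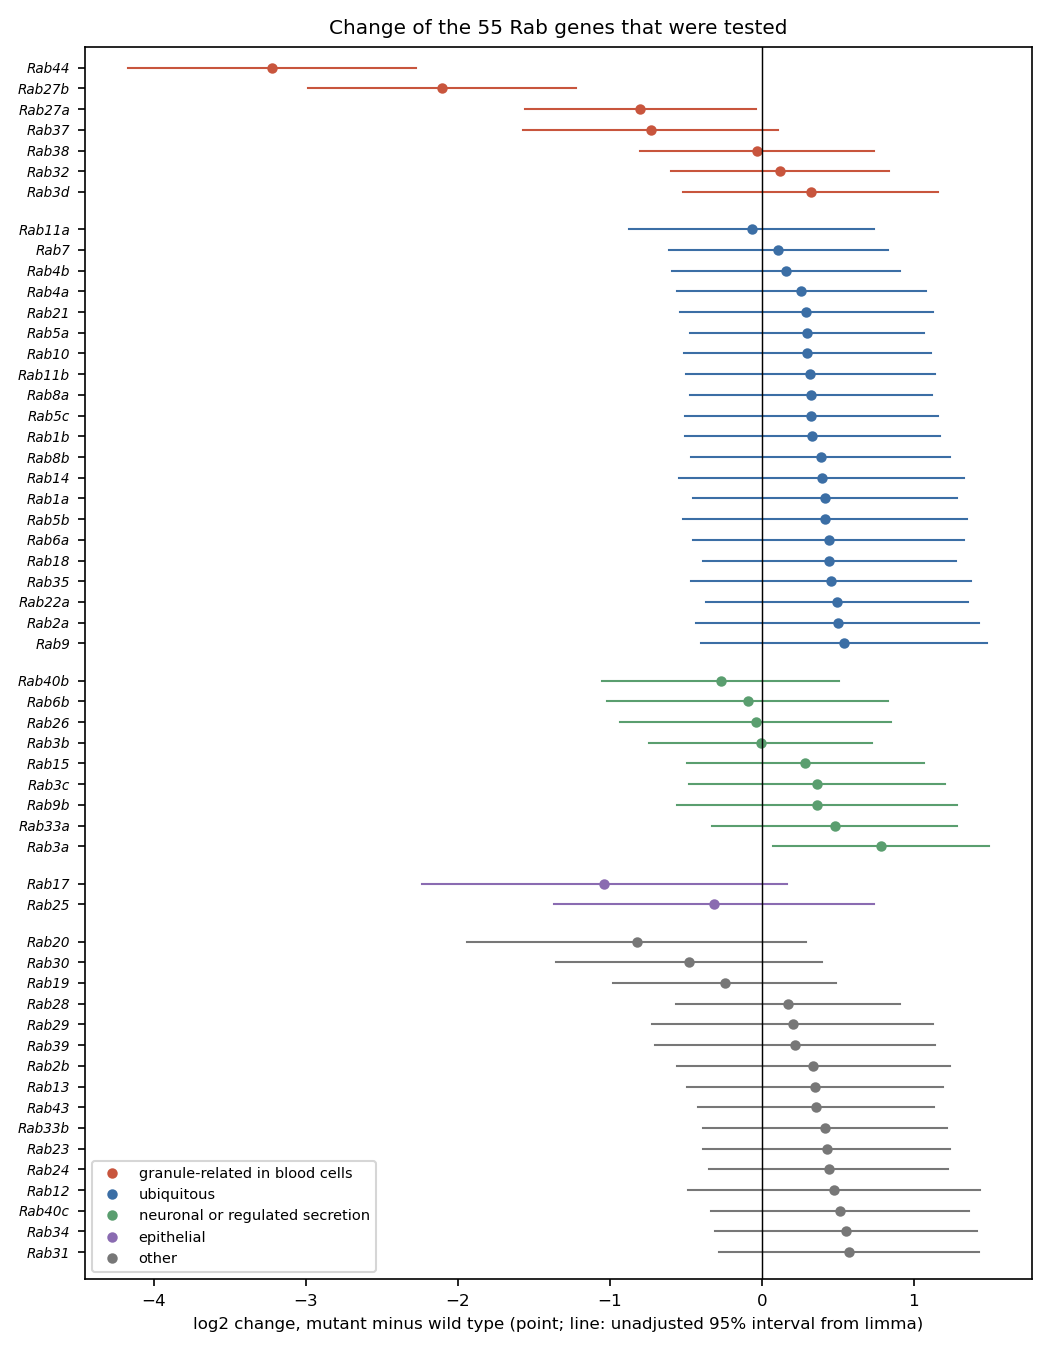
Change of each of the 55 tested Rab genes, mutant minus wild type, on the log2 scale, with points for limma's estimate and lines for its unadjusted 95% interval (4 arrays a group), ordered within 5 lists by colour. Rab44 and Rab27b lie farthest to the left at -3.22 and -2.10, and 20 of the 21 ubiquitous members lie to the right of 0 with intervals that cross it.

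Rab44 is a large, atypical Rab with calcium-binding EF-hand domains that has been linked to granule release in mast cells. On the wild type arrays 1 to 4 its probe read -0.60, -0.73, -0.39 and 0.25, and on the mutant arrays -4.56, -2.76, -3.64 and -3.40. Every mutant lay below every wild type, with more than 2 log2 units between the nearest embryos, and the probe was well above background on all 8 arrays. Rab44 fell by 3.22 ± 0.43 (SE) on the log2 scale, or 9.34-fold (95% interval of the log2 change -4.17 to -2.28, adjusted p = 0.0362 by limma). The exact two-sided permutation test of 4 against 4 gave p = 0.0286, the smallest that its 70 arrangements allow. Every gene whose groups do not overlap gets this value. Within litter 1 the change was -2.99 and within litter 2 it was -3.46. With normexp background correction, which treats dim spots differently, the change was -2.43, or 5.39-fold (adjusted p = 0.0012), and with normexp and quantile normalization it was -2.34 (adjusted p = 0.0816). With litter as a block the adjusted p was 0.0643, and with quantile normalization alone the change was -3.13 with an adjusted p of 0.245. Leaving out 1 array also ended the call for wild type 1 (adjusted p = 0.143), wild type 2 (0.0991), wild type 3 (0.212), wild type 4 (0.199), mutant 1 (0.0925) and mutant 3 (0.161), as did leaving out the 3 arrays that stood apart (change -3.48, adjusted p = 0.855). It held without mutant 2 (0.0234) and without mutant 4 (0.0365).

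Rab27b docks dense granules in platelets and secretory granules in mast cells at the plasma membrane. The wild type arrays read 0.39, -0.44, 0.10 and 0.30, and the mutants -1.56, -1.40, -2.81 and -2.29. Again no mutant reached the lowest wild type, and both litter 2 mutants lay below both litter 1 mutants. The difference was -2.10 ± 0.40 (SE), 4.30-fold, with an unadjusted p of 0.000276 and an adjusted p of 0.263 by limma. The exact permutation p, 0.0286, was the smallest possible, which follows from the lack of overlap and adds nothing to it. A second probe, in another part of the gene, gave -1.82. Litter 1 gave -1.46 and litter 2 gave -2.75, and the test of that gap gave an unadjusted p of 0.0844 (adjusted p = 1, limma), the lowest among the 55 members. With normexp the change was -1.82 and the adjusted p 0.0329, the only 1 of 20 alternatives past the threshold, and over all of them the adjusted p by limma ran from 0.0329 to 0.959.

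Rab27a is the close relative of Rab27b that moves melanosomes and docks the lytic granules of cytotoxic lymphocytes. Its spot on wild type 2 was marked as an outlier by the scanner software and left out, so 3 wild type values entered the fit. Those for wild type 1, 3 and 4 were -1.37, -1.17 and -1.43, against -1.99, -2.42, -2.13 and -1.95 in the mutants. The groups did not overlap, and the marked spot, at -0.29, lay above all of them. The difference was -0.80 ± 0.34 (SE, adjusted p = 0.717 by limma), or -1.06 ± 0.356 with the marked spot kept (adjusted p = 0.713).

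Rab37, found on mast cell granules, read -0.20, -1.20, -0.74 and 0.03 in wild type and -0.77, -1.23, -1.34 and -1.70 in mutants. The groups overlapped, since wild type 2 lay lower than mutant 1. The difference was -0.73 ± 0.38 (SE, adjusted p = 0.717 by limma, exact permutation p = 0.0571), with -0.30 in litter 1 and -1.16 in litter 2.

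The remaining granule-related members, Rab32, Rab38 and Rab3d, showed no lower values in mutants that stood clear of the spread. Rab32 and Rab38 act side by side in building melanosomes and platelet dense granules. Rab32 had a mean of -0.39 ± 0.343 (SD, n = 4) in wild type and -0.27 ± 0.23 in mutants, a difference of 0.12 (95% interval -0.60 to 0.84). For Rab38 the means were -1.85 ± 0.312 and -1.88 ± 0.443, a difference of -0.03 (interval -0.80 to 0.74). Rab3d, a Rab of secretory granules in mast cells and exocrine glands, differed by 0.32 ± 0.381 (SE) at its brighter probe and by -0.62 at its second, so its direction depends on the probe. The intervals of Rab32, Rab38 and the brighter Rab3d probe (-0.52 to 1.16) leave out a fall as large as that of Rab44 or Rab27b. The second Rab3d probe lies outside that gene's interval and has none of its own, so the interval does not bound the gene. These intervals are the unadjusted ones of limma.

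**Figure D2:**
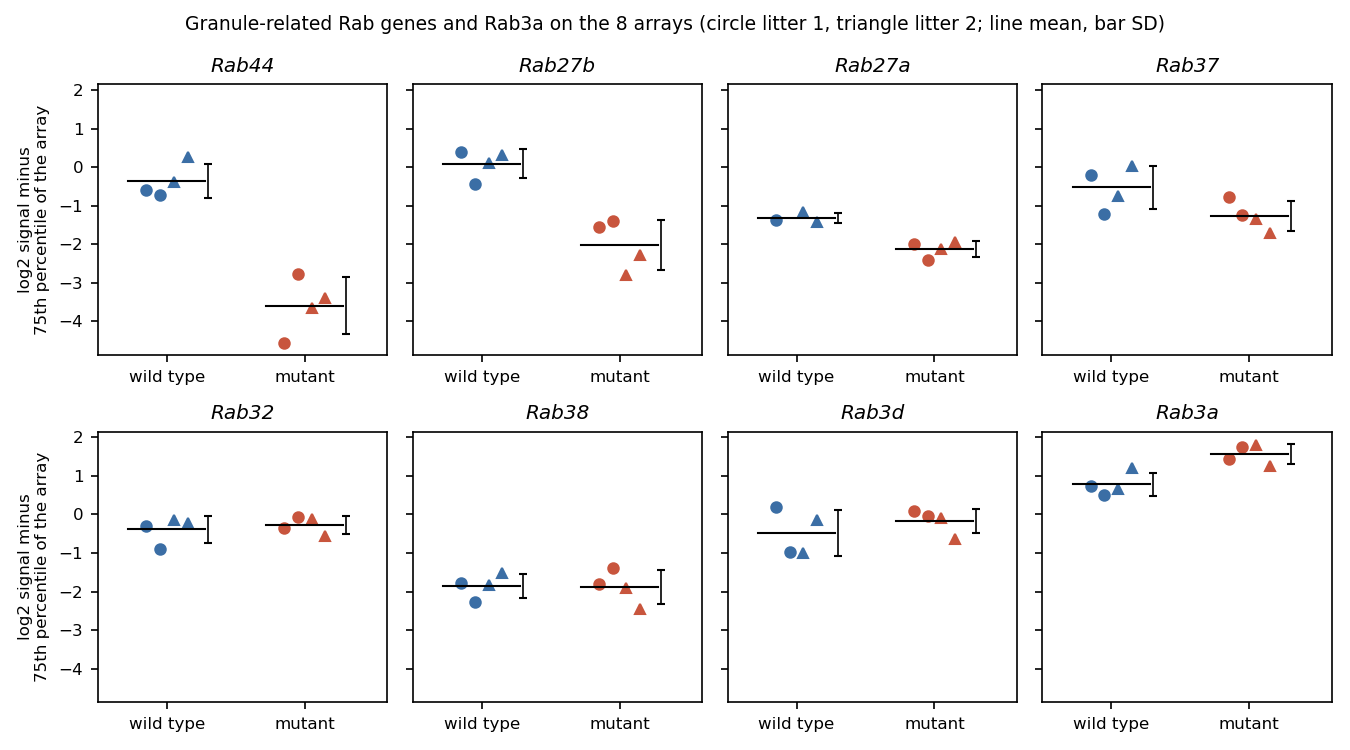
Signal of the 7 granule-related Rab genes and of Rab3a on each array (log2 minus the array's 75th percentile), wild type in blue and mutant in red, circles for litter 1 and triangles for litter 2, with the mean as a line and the SD as a bar (n = 4, and 3 for Rab27a in wild type). The genotypes separate for Rab44, Rab27b and Rab27a, with mutants lower, and for Rab3a, with mutants higher, and overlap for Rab37, Rab32, Rab38 and Rab3d.

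Within each array, the median of the granule-related members minus the median of the ubiquitous ones gives 1 number an embryo. It was -3.34, -3.18, -2.58 and -2.63 on the wild type arrays and -4.75, -4.55, -4.59 and -4.13 on the mutants. All 4 mutants lay below all 4 wild types. The level of this number depends on the probes, so only its difference between genotypes can be read, and that depends on the scaling. With quantile normalization the median change was -0.60 for the granule-related and 0.01 for the ubiquitous members, against -0.73 and 0.33 here. The lists were chosen with earlier results known, so this number is no test of them.

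Markers of granule-bearing blood cells differed between the same arrays. The mean level of 12 megakaryocyte and platelet markers lay between 1.25 and 2.24 in wild type and between -1.15 and -0.18 in mutants, with 12 of 12 lower. For 10 tested mast cell and basophil markers the ranges were -1.31 to -0.47 and -3.18 to -2.42 (9 of 10 lower, and Ms4a2 not well above background in any group). The 6 eosinophil markers ranged from -1.02 to 0.11 in wild type and from -4.13 to -2.59 in mutants, all of them lower. Of 12 neutrophil and granulocyte precursor markers 11 were lower, with -1.21 to -0.54 against -3.04 to -2.02. In the order given, 3, 1, 3 and 3 markers were lower at an adjusted p under 0.05 by limma (0.0448% of all features). The ranges did not overlap between genotypes for any of the 4 cell types, whereas those of 11 macrophage markers did (-0.88 to 0.70 and -1.12 to 0.45). Of these 11, 10 were lower in mutants and none passed the adjusted threshold. Their mean level was -0.88 and -0.38 in wild type against -1.12 and -0.65 in mutants of litter 1, and 0.66 and 0.70 against 0.37 and 0.45 in litter 2, so the genotypes overlapped within litter 1 and not within litter 2. Melanoblast markers, for the cells in which Rab27a, Rab32 and Rab38 also act, were at -2.45 to -1.16 and -2.82 to -1.41, with Tyrp1 not well above background in any group. Of the 6 tested, 5 were lower in mutants, with a median change of -0.53, and none passed the adjusted threshold. In RNA from a mixed population, fewer cells of a type and less RNA per cell cannot be told apart, and the part of these cell types in the Rab values was not tested.

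**Figure D3:**
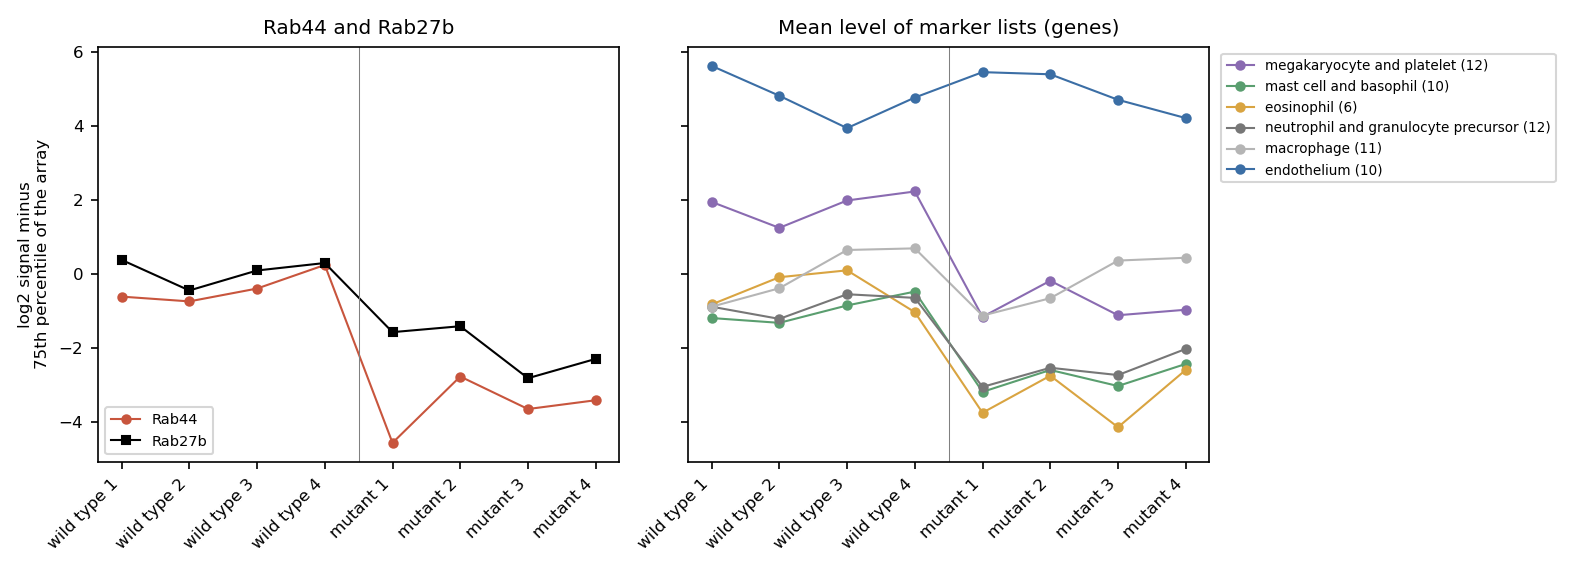
Left, the signal of Rab44 and Rab27b on each array (log2 minus the array's 75th percentile). Right, the mean level of the marker lists on the same scale, with the number of tested genes in brackets. Lines join the points of 1 gene or list and give the arrays no order. Both Rabs and the megakaryocyte, mast cell, eosinophil and neutrophil lists were lower on all 4 mutant arrays, while the macrophage and endothelium lists overlapped between genotypes over the 8 arrays.

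Genes with a pattern over the 8 arrays like that of Rab44 and Rab27b were sought by Pearson correlation among 21454 genes. Rab44 was nearest to Slpi (r = 0.987), AI661384 (0.986), S100a9 (0.985), Stfa1 (0.983) and Cpa3 (0.982). S100a9 is a calcium-binding protein of neutrophils, Slpi a protease inhibitor, Stfa1 a stefin and Cpa3 a mast cell carboxypeptidase. Rab27b was nearest to Alox12 (0.984), Slc35d3 (0.977), Gp1ba (0.976), Il1rl1 (0.972) and Rgs18 (0.965). Alox12 is the platelet lipoxygenase, Gp1ba the platelet receptor for von Willebrand factor and Il1rl1 the receptor for interleukin 33 on mast cells. Rab44 and Rab27b correlated with each other at 0.891. These are descriptions over 8 arrays that share 2 genotype groups and 2 litters, and any gene with a large genotype difference is drawn toward a high value.

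Rab3a, a Rab of synaptic and other secretory vesicles, was the only member to differ upward without overlap. It read 0.74, 0.50, 0.67 and 1.20 in wild type and 1.45, 1.74, 1.81 and 1.24 in mutants. The nearest pair, wild type 4 and mutant 4, was separated by less than 0.1. The difference was 0.78 ± 0.32 (SE) or 1.72-fold, with an unadjusted p of 0.0338 and an adjusted p of 0.717 by limma. The exact permutation p was 0.0286, the value that any gene without overlap gets, so it adds nothing to the lack of overlap. It was positive in both litters, at 0.97 and 0.59. The 8 neuron markers ranged from 0.84 to 1.38 in wild type and from 0.82 to 1.64 in mutants, overlapping, with 1 of 8 lower and a median change of 0.35. Their part in the Rab3a value was not tested.

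Of the other 8 tested Rabs of the neuronal or regulated-secretion list, 4 were higher and 4 lower, with a median of 0.14, and none passed an unadjusted p of 0.05. The close paralogs of Rab3a gave 0.36 ± 0.382 (SE) for Rab3c and -0.01 ± 0.333 for Rab3b. Rab40b, which recruits a ubiquitin ligase, had the lowest value of the list at -0.27 ± 0.353. Rab6b, the neuronal form of Rab6, differed by -0.09 ± 0.419 with the mutants spread from -0.92 to 0.81.

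The Rabs of the general secretory pathway and endosomes varied together from array to array, and none passed the test for genotype. Of the 21 ubiquitous members, 20 had a positive and 1 a negative difference, none passed an unadjusted p of 0.05, and all overlapped between groups. Their median was 0.33, and without the 3 arrays that stood apart it was 0.20 with 18 of 21 positive. Over all features 47.6% of differences were below 0. Rab1a and Rab1b, which carry vesicles from the endoplasmic reticulum to the Golgi, differed by 0.42 ± 0.394 and 0.33 ± 0.38 (SE). The Golgi Rab Rab6a gave 0.44 ± 0.404 and Rab14, which works between Golgi and endosomes, 0.39 ± 0.427.

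Rab1a shows the array pattern: it read 4.65, 3.69, 3.30 and 4.01 in wild type and 4.71, 4.66, 4.18 and 3.76 in mutants. Its lowest values fell on wild type 2, wild type 3 and mutant 4. The same was true of 19 of the 21 ubiquitous members and of 29 of all 55. The interquartile range of log2 signals was 3.69, 3.42 and 2.91 on these 3 arrays and 3.56 to 4.39 on the other 5. Features with a mean level of 2 or over had a median change of 0.41, against 0.40 for the 18 Rab members in that band and 0.39 for the 14 ubiquitous ones. In the band from 0 to 2 the medians were 0.33 for all features and 0.34 for Rabs. Below 0 they were -0.11 and -0.26 in the band from -2, and -0.26 and -0.14 under -2. With quantile normalization, which gives all arrays the same spread, the ubiquitous median was 0.01, 11 of 21 were positive and the median of all features was 0.05. On that scaling the median of all features was 0.03 in the band of 2 and over, against 0.00 for its 14 ubiquitous Rabs, and 0.18 in the band from 0 to 2, against 0.02 for its 6. None of the ubiquitous Rabs was shown to differ with genotype.

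**Figure D4:**
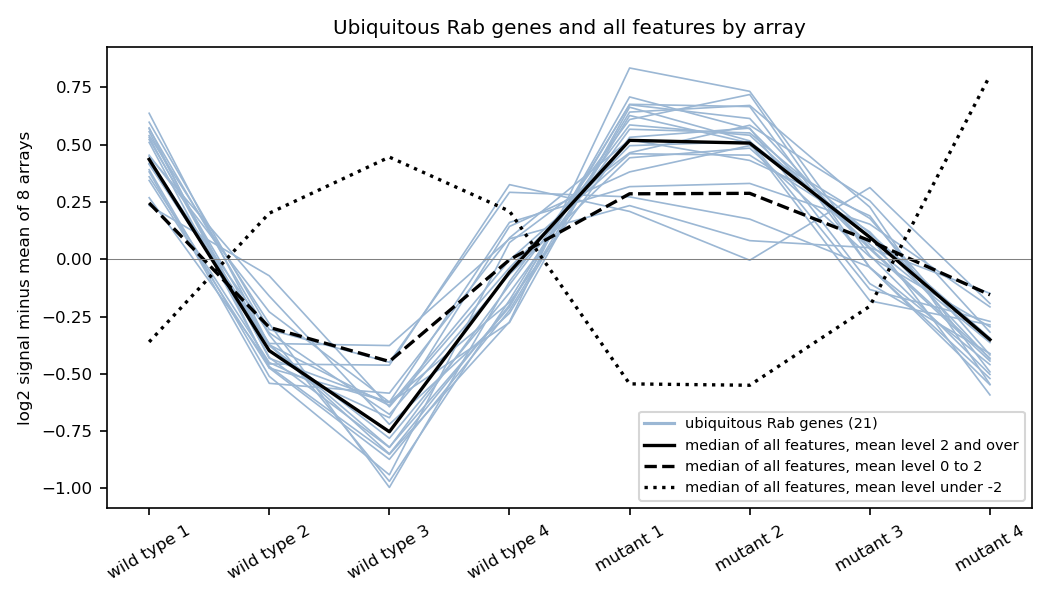
Deviation of each of the 21 ubiquitous Rab genes from its mean over the 8 arrays (blue lines, log2), with the median of all features in 3 bands of mean level in black. Lines join the values of 1 gene or band and give the arrays no order. The Rab lines follow the band of bright features (mean level 2 and over), low on wild type 2, wild type 3 and mutant 4, and the dimmest band runs the other way.

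Rabs that mark successive endosomes gave like values at their brightest probes. Rab5a, Rab5b and Rab5c, which act on early endosomes, differed by 0.30 ± 0.349, 0.42 ± 0.424 and 0.33 ± 0.378 (SE). Rab4a and Rab4b, for fast recycling, gave 0.26 and 0.16. Dimmer probes did not all share these signs. Those of Rab5b gave -0.34, -0.40 and 0.105, and that of Rab4a gave -0.19, each well above background on all 8 arrays. Rab11b, of the recycling endosome, gave 0.32 ± 0.372, but its paralog Rab11a gave -0.07 ± 0.367, the only negative value among the ubiquitous members. Rab9, for the return from late endosomes to the Golgi, had the highest value of the list at 0.54 ± 0.427.

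The members nearest to the mutated locus were Rab7 and Rab43. Rab7, the Rab of late endosomes and lysosomes, is measured by a probe 205.9 kb from that of Gata2 on chromosome 6 in mm9, with 1 protein-coding gene between them in RefSeq's order. Rab7 read 2.24, 1.44, 1.43 and 1.89 in wild type and 2.04, 1.88, 1.85 and 1.65 in mutants. These overlapped, with a difference of 0.11 (95% interval -0.61 to 0.83). Rab43, a Golgi Rab whose probe is 417.5 kb away with 8 protein-coding genes between, differed by 0.36 (interval -0.42 to 1.13). Neither interval reaches a change of the size seen in Gata2.

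Among the remaining Rabs, 3 of 16 were lower and 13 higher, with a median of 0.35 and no call. Rab20, a Rab of phagosomes, had the lowest value at -0.82 ± 0.507 (SE). It read -1.47, -0.20, 0.06 and -0.85 in wild type and -2.08, -2.20, -1.18 and -0.28 in mutants, so mutants 3 and 4 lay within the wild type range. The highest values were those of wild type 2, wild type 3 and mutant 4, and without these arrays the difference was -0.66. Rab31, of the trans-Golgi network, had the highest at 0.57 ± 0.388. Rab23 and Rab34, both tied to hedgehog signalling and cilia, gave 0.43 ± 0.368 and 0.55 ± 0.391.

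The epithelial Rabs were 2, Rab17 and Rab25, and both were lower without passing a test. Rab17 read -0.83, 0.77, 1.07 and -0.62 in wild type and -1.35, -1.25, -1.41 and 0.26 in mutants. Its high values fell on wild type 2, wild type 3 and mutant 4, the reverse of the ubiquitous members. The difference was -1.04 ± 0.545 (SE) at the brighter probe and 0.37 at the second, the widest gap between probes of any member at 1.41. Without those 3 arrays it was -0.61 at the brighter probe. Rab25 differed by -0.31 ± 0.477, and by -0.81 without them. Over the whole set, 24 further probes of 20 genes were well above background on at least 4 arrays, 17 with the sign of the brighter probe and 7 with the opposite one, with a median gap of 0.11.

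Within litters, 38 members were positive and 11 negative in both, which leaves 6 of mixed sign. Rab27b and Rab37 showed the larger fall in litter 2, and Rab20 and Rab17 in litter 1. No member had an unadjusted p under 0.05 for a difference between litters in the genotype effect, against 1.22% of all features. Between litters themselves, no Rab passed an adjusted p of 0.05 by limma, against 4.02% of features higher and 0.895% lower in litter 2. The lowest adjusted p was 0.101, for Rab12. At an unadjusted p under 0.05, 11 members were lower and 2 higher in litter 2, against 7.86% and 18% of all features. The difference between litters went with level. Features with a mean level of 2 or over had a median of -0.54 (Rab members -0.60), and those from 0 to 2 had -0.31 (Rab members -0.38). In the band from -2 to 0 the medians were 0.33 and 0.13, and under -2 they were 0.68 and 0.46.

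**Figure D5:**
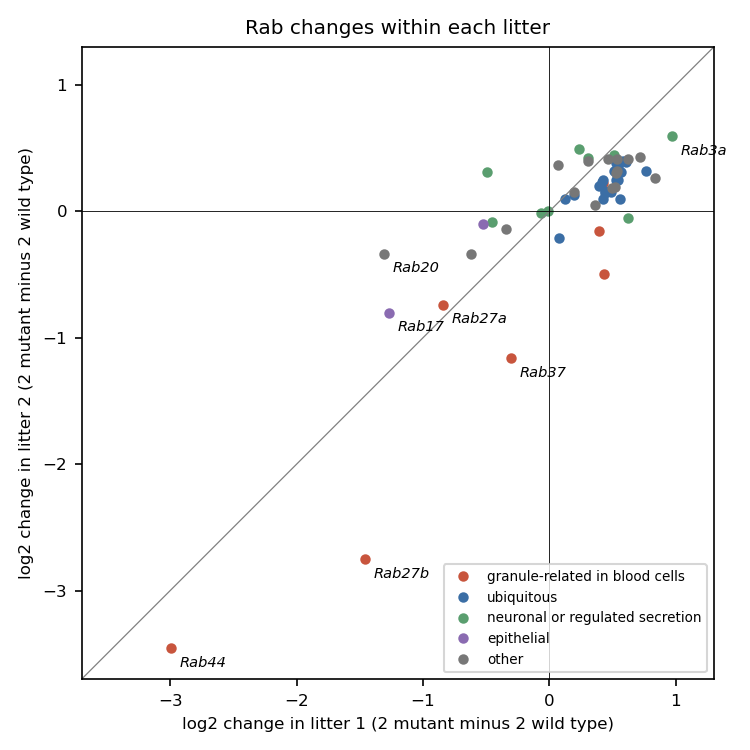
Log2 change of the 55 tested Rab genes in litter 1 (horizontal) and litter 2 (vertical), each the mean of 2 mutants minus the mean of 2 wild types (1 wild type for Rab27a in litter 1), with equal changes on the diagonal. Rab44 and Rab27b lie low in both litters, Rab27b farther from the diagonal with -1.46 and -2.75, and most other members cluster between 0 and 1 in both.

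The partners of the granule Rabs were measured too. Of 21 genes for Rab27 effectors and granule docking or fusion, 11 were lower and 10 higher with a median of 0.00, and no adjusted p was under 0.05. Stx11, a fusion protein of platelet and cytotoxic granules, differed by -0.92 ± 0.353 (SE, unadjusted p = 0.0241) without overlap. The Rab27 effectors Sytl3, Myrip and Sytl1 differed by -1.08 ± 0.558, -0.93 ± 0.522 and -0.55 ± 0.338 with overlap and unadjusted p of 0.0788, 0.101 and 0.132 by limma. Unc13d, which primes Rab27a-bound granules for fusion, differed by -0.08 ± 0.337, and Sytl4, a Rab27 effector on secretory granules, by -0.19 ± 0.37. Of the 10 genes that were higher, Vamp7 and Vamp8 differed most, by 0.64 ± 0.39 and 0.55 ± 0.393 (SE) with overlap. Sytl2 and Rph3al were also among the higher ones, at 0.41 ± 0.355 and 0.30 ± 0.364.

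Of 23 genes that build lysosome-related organelles, 19 were higher and 4 lower with a median of 0.34, near that of the ubiquitous Rabs. Their median level was 1.19, and all features with a mean level from 0 to 2 had a median change of 0.33. Nbeal2, Hps1 and Hps6 were lower by small amounts, at -0.37 ± 0.32, -0.26 ± 0.412 and -0.11 ± 0.312 (SE). Slc35d3, which is needed for platelet dense granules, had the largest fall of the list. Its mean was -2.13 ± 0.591 (SD, n = 4) in wild type and -4.10 ± 0.746 in mutants, where 2 of 4 arrays were well above background. The groups did not overlap, and the difference of -1.97 ± 0.455 (SE) had an unadjusted p of 0.00121 and an adjusted p of 0.717 by limma. With normexp it was -1.13, and with normexp and quantile normalization -1.01. Bloc1s1 and Dtnbp1, subunits of a complex for such organelles, gave 0.52 ± 0.428 and 0.37 ± 0.39.

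The general Rab machinery had medians near that of the ubiquitous members, and near the 0.33 of all features with a mean level from 0 to 2. All 7 genes of prenylation and recycling had positive differences with a median of 0.33. Among them, Gdi2, which extracts Rabs from membranes, was at 0.33 ± 0.392 (SE) and the prenylated Rab acceptor Rabac1 at 0.29 ± 0.382. Chm had the highest value of the list, 0.87 ± 0.474, with an unadjusted p of 0.0926 by limma. None had an unadjusted p under 0.05, and Gdi2 and Rabac1 turned negative with quantile normalization, at -0.08 and -0.13. Of 32 exchange factors and GTPase-activating proteins, 24 were higher and 8 lower with a median of 0.28. The DENN-domain exchange factors Dennd2d and Dennd1c differed by -0.78 ± 0.343 and -0.87 ± 0.385, with unadjusted p of 0.0441 and 0.0458 and an adjusted p of 0.717 by limma for both. With normexp they differed by -0.46 and -0.52. Of 15 effectors of Rab5, Rab7 and Rab11, 14 were higher with a median of 0.35. The brightest were Rabep2, a Rab5 effector, at 0.37 ± 0.425, and Rab11fip3 at 0.11 ± 0.312, which read -0.21 with quantile normalization.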

How the data were processed

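CD31-enriched cells of 4 mutant and 4 wild type embryos were hybridised to 1-colour (Cy3) Agilent arrays, 1 embryo an array. The deposited intensity values came from Agilent Feature Extraction 10.7.3.1, per the file headers, with background subtracted and no scaling between arrays. The authors' deposited table gave per-sample log2 values, which follow each array's scanner log2 signal up to a shift and were used as an alternative. Its log2 fold changes, its p-value columns and its t and B score columns, per the file headers from the authors' fit, were not used. Its centring is not given in the sources used here: column medians lay between -0.104 and -0.063. The submitters' processing notes name limma.

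Here log2 processed signal minus each array's 75th percentile was used, outlier-flagged spots and control spots were left out, spots of a probe were averaged, and features well above background on at least 4 arrays with at least 3 values a group were kept. Old names were brought up to date through RefSeq. limma 3.58.1 (R 4.3.3, lmFit and eBayes) was fitted to the 2 groups over all features with Benjamini-Hochberg adjustment, and single values also had a two-sided exact permutation test. Only the genotype fit was tested on simulated data. Precision is limited by the number of arrays.

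The members and lists were chosen with earlier results of these data known. Genes were named by a rule: Rab44 and Rab27b; members past the adjusted threshold, or at an unadjusted p under 0.05 without overlap; all granule-related members; the 4 brightest ubiquitous ones; the highest and lowest of each other list; up to 4 regulators a list at an unadjusted p under 0.05 or else the 2 brightest; and the 5 genes most correlated with Rab44 or Rab27b. Others named for their role or value in the text (Rab3b, Rab3c, Rab4a, Rab4b, Rab5a to Rab5c, Rab6b, Rab7, Rab9, Rab11a, Rab11b, Rab23, Rab34, Rab43, Unc13d, Sytl1, Sytl2, Sytl3, Sytl4, Myrip, Rph3al, Vamp7, Vamp8, Bloc1s1, Dtnbp1, Nbeal2, Hps1, Hps6, Chm) were chosen after their values were seen. The labels place same-litter embryos together, and litter was therefore tried as a block; deviations from the group means correlated at 0.544 to 0.742 for some same-litter pairs and at -0.162 to -0.029 for others. Marker lists not described with the results also held T, B and NK cell (5 of 9 lower, median -0.16), erythroid (2 of 8, 0.40) and epithelium genes (4 of 6, -0.33).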

Additional observations from a re-analysis of the deposited data

Results flagged for a closer look

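A single array stood far from the other 3 of its group for 3 Rab genes, judged by its gap to the nearest one over the range of the group (Dixon's test at 95%). Rab17 read 0.257 on mutant 4 against -1.414 to -1.251 on the other mutants, a gap of 0.902 of the range. Rab6b read 0.69 on wild type 4 against 0.042 to 0.106 on the other wild types (0.901). Rab34 read 2.083 on mutant 3 against 1.579 to 1.596 (0.966). With 109 groups examined, about 5.4 such cases are expected by chance, so their number is no pattern. The Rab17 value fell on 1 of the 3 arrays that stood apart, and the others did not.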

How the results depend on the processing

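Of the 20 alternatives, 8 kept Rab44 past the adjusted threshold, and its change ranged from -3.50 to -2.34 with adjusted p from 9.36e-05 to 0.855. The count of Rab members called lower was 1, and it was 0 with quantile normalization, normexp with quantile normalization (adjusted p for Rab44 0.0816), no filter on dim probes (0.0563), litter as a replicate block (0.0643), the sample number as a replicate block (0.158) and without the 3 arrays apart, and 2 with normexp and the 75th percentile, where Rab27b was added. Leaving out each array in turn gave 0 to 1. No alternative called a Rab higher. Over all features the calls ranged from 0 (both blocks, without the 3 arrays apart, and without wild type 1, 3 or 4 or mutant 1 or 3) to 52 (authors' values), against 18. Same-numbered samples correlated at 0.616, -0.029, -0.095 and -0.162 in their deviations, so the numbers do not pair them.

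The granule-related median, -0.73, ran from -0.84 to -0.55 without 1 array, and was -0.38 when all 8 arrays had to be well above background, which drops Rab27a. The ubiquitous median ran from 0.15 to 0.54 without 1 array. The authors' values moved the median of all features from 0.05 to 0.40, and that of the ubiquitous Rabs to 0.60.

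With quantile normalization 13 of the 55 members changed sign, 9 of them ubiquitous. Single signs were followed only for the Rab members and regulators named by the rule, and not for genes named for their role. Among those followed, the genes that turned were Rab38 (0.11), Rab14 (-0.008), Rab1b (-0.053), Gdi2 (-0.082), Rabac1 (-0.13) and Rab11fip3 (-0.21). With normexp and quantile normalization they were Rab38 (0.083), Rab1b (-0.055), Gdi2 (-0.076), Rabac1 (-0.13) and Rab11fip3 (-0.18). Rab3d turned with the mean of its probes (-0.15) and without the 3 arrays apart (-0.025), as did Rabac1 there (-0.004), and Rab38 turned with the authors' values (0.23). Without 1 array Rab38 ran from -0.20 to 0.16, Rab32 from -0.05 to 0.22 and Rab25 from -0.58 to 0.10. Beyond the constructions named, the cause was not tested. Keeping spots marked as outliers was an alternative chosen after seeing the data, and it changed no call. Dim probes, small groups and the 3 arrays apart limit what can be read: intervals of most members span more than 1 log2 unit.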

Other observations

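Genes named Rab by current nomenclature but outside the name rule were 2. Rab42, listed under a pseudogene name in the files, had a mean of -2.64 ± 0.14 (SD, n = 4) in wild type and -2.48 ± 0.285 in mutants, a difference of 0.16 ± 0.31 (SE, adjusted p = 0.799 by limma). Rab7b, listed under a clone name, had means of -2.73 ± 1.101 and -3.21 ± 0.819, a difference of -0.48 ± 0.584 (adjusted p = 0.725 by limma).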
